A study of Caenorhabditis elegans with 9 samples.

Results

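The exons described here are the cassette exons of 4 *C. elegans* transcription factor genes, *zip-3*, *ztf-4*, *nhr-79* and *nhr-195*. They were chosen by gene name, as every exon deposited under these names, which gave 1 exon per gene. They are 4 of 786 cassette exons deposited for *smg-1* and 4 of 620 deposited for *smg-2*. The RNA came from whole animals, synchronized at the L4 larval stage, and was poly(A)-selected. There were 3 biological replicates of wild-type (N2), 3 of *smg-1* (strain TR1331, labelled as a knockout in the N2 background) and 3 of *smg-2* (strain CB4043, labelled likewise). The study compared animals with and without nonsense-mediated mRNA decay (NMD) to find splice forms that decay removes. Each mutant is 1 strain, and the levels of *smg-1* and *smg-2* themselves could not be checked in data that hold cassette exons alone.

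NMD degrades mRNAs on which the ribosome meets a stop codon too early. In one model the trigger is a stop codon well upstream of the last exon junction, since the exon junction complexes deposited during splicing then stay on the mRNA. In another it is an unusually long untranslated region after the stop codon. SMG-1 is a protein kinase that phosphorylates SMG-2, the RNA helicase at the core of the pathway. An exon whose length is not a multiple of 3 shifts the reading frame when it is skipped, so its inclusion or omission can decide whether a full protein is made. *zip-3* encodes a bZIP protein, a class that binds DNA through a basic region followed by a leucine zipper, and ZIP-3 is known as a repressor of the mitochondrial unfolded protein response driven by ATFS-1. *ztf-4* encodes a zinc finger protein. *nhr-79* and *nhr-195* belong to the nuclear hormone receptor family, which is greatly expanded in nematodes, with a DNA-binding domain of paired zinc fingers near the N-terminus and a ligand-binding domain towards the C-terminus.

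In the WBcel235 annotation each of the 4 exons matched an annotated exon exactly. The *zip-3* exon (chrII:13953994-13954166, minus strand, 173 nt) is coding and is included in both annotated transcripts, so its omission is not an annotated form. The 136-nt *ztf-4* exon is coding in the single annotated transcript. The *nhr-79* exon (chrV:19208844-19208908, minus strand, 65 nt) is coding in isoform a and skipped in isoform b, each with 1 transcript. The *nhr-195* exon (chrV:8971851-8972005, minus strand, 155 nt) is coding in isoform b, while in the 6 transcripts of isoform a it is either 5′ UTR or skipped, because translation is annotated to start downstream of it. Of the 7 *nhr-195* transcripts, 4 include the exon and 3 skip it. None of the 4 lengths is a multiple of 3.

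The spliced sequences of *zip-3* and *nhr-79* are shown with and without the exon, because the loss of the exon is what changes the frame. In the forms with the exon, capitals mark the exon and 30 bases of each neighbouring exon are given. In the forms without it, 30 bases of the upstream exon run straight into the downstream exon up to the first stop codon in frame, which is in capitals. For *nhr-195* only the last 30 bases before the end of that stop codon are given.
zip-3 with the exon: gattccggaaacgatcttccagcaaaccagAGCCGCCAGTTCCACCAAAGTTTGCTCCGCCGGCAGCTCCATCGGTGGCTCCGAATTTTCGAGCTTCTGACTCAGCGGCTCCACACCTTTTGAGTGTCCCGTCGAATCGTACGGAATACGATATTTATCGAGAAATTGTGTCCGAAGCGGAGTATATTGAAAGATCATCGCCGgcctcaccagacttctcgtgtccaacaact
zip-3 without the exon: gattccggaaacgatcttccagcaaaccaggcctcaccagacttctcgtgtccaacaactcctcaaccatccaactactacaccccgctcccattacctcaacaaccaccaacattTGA
nhr-79 with the exon: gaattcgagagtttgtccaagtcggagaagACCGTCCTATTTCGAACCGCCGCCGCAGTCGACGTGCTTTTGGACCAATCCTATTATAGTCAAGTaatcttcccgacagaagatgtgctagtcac
nhr-79 without the exon: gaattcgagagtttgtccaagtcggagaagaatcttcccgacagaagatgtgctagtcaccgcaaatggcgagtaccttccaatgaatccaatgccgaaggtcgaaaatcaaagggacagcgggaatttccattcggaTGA
nhr-195 without the exon: ggaatgagacctgataaaaactcaaatTGA

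Read from the annotated start codon, the *zip-3* mRNA with the exon encodes 307 residues and the mRNA without it 59 residues. The stop codon of the skipped form lies 86 nt after the new junction and 265 nt before the last junction. The search for a bZIP basic region (asparagine, 7 residues with alanine or serine in the middle, then arginine) matched residues 253 to 261 of the full protein, which is after the exon and beyond the end of the short protein. For *ztf-4* the lengths are 367 residues with the exon and 199 without it. Its skipped form stops 149 nt after the junction and 185 nt before the last junction, and the single C2H2 zinc finger match, residues 275 to 296, is lost with it. The *nhr-79* mRNA encodes 463 residues with the exon and 313 without it, stopping 108 nt after the junction and 134 nt before the last junction. Its match to the first zinc finger of a nuclear receptor, residues 6 to 27, stays in both forms, and what is lost is C-terminal sequence. The search for the second zinc finger found no match in either form of *nhr-79*. The isoform b frame of *nhr-195* encodes 404 residues with the exon and 95 without it. Its skipped form stops 11 nt after the junction and 664 nt before the last junction, after the matches to both zinc fingers (residues 21 to 41 and 58 to 78). No transcript is annotated to skip the exon and be translated in that frame. Read from its first ATG instead of its annotated start, the annotated skipping transcript F59E11.10a.5 gives the same values, 95 residues and 664 nt. All annotated *nhr-195* transcripts that skip the exon are of isoform a, whose frame encodes 212 residues with or without it. Their stop codon lies in the last exon, so skipping creates no early stop in that frame. The isoform a frame held no match to either zinc finger, with or without the exon. Exon junction complexes sit about 25 nt upstream of a junction, and a stop codon over 55 nt upstream of the last complex is a usual criterion for decay. By that measure the stops of the skipped forms lie 109 nt (*nhr-79*), 160 nt (*ztf-4*), 240 nt (*zip-3*) and 639 nt (*nhr-195*, isoform b frame only) upstream.

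**Figure D1:**
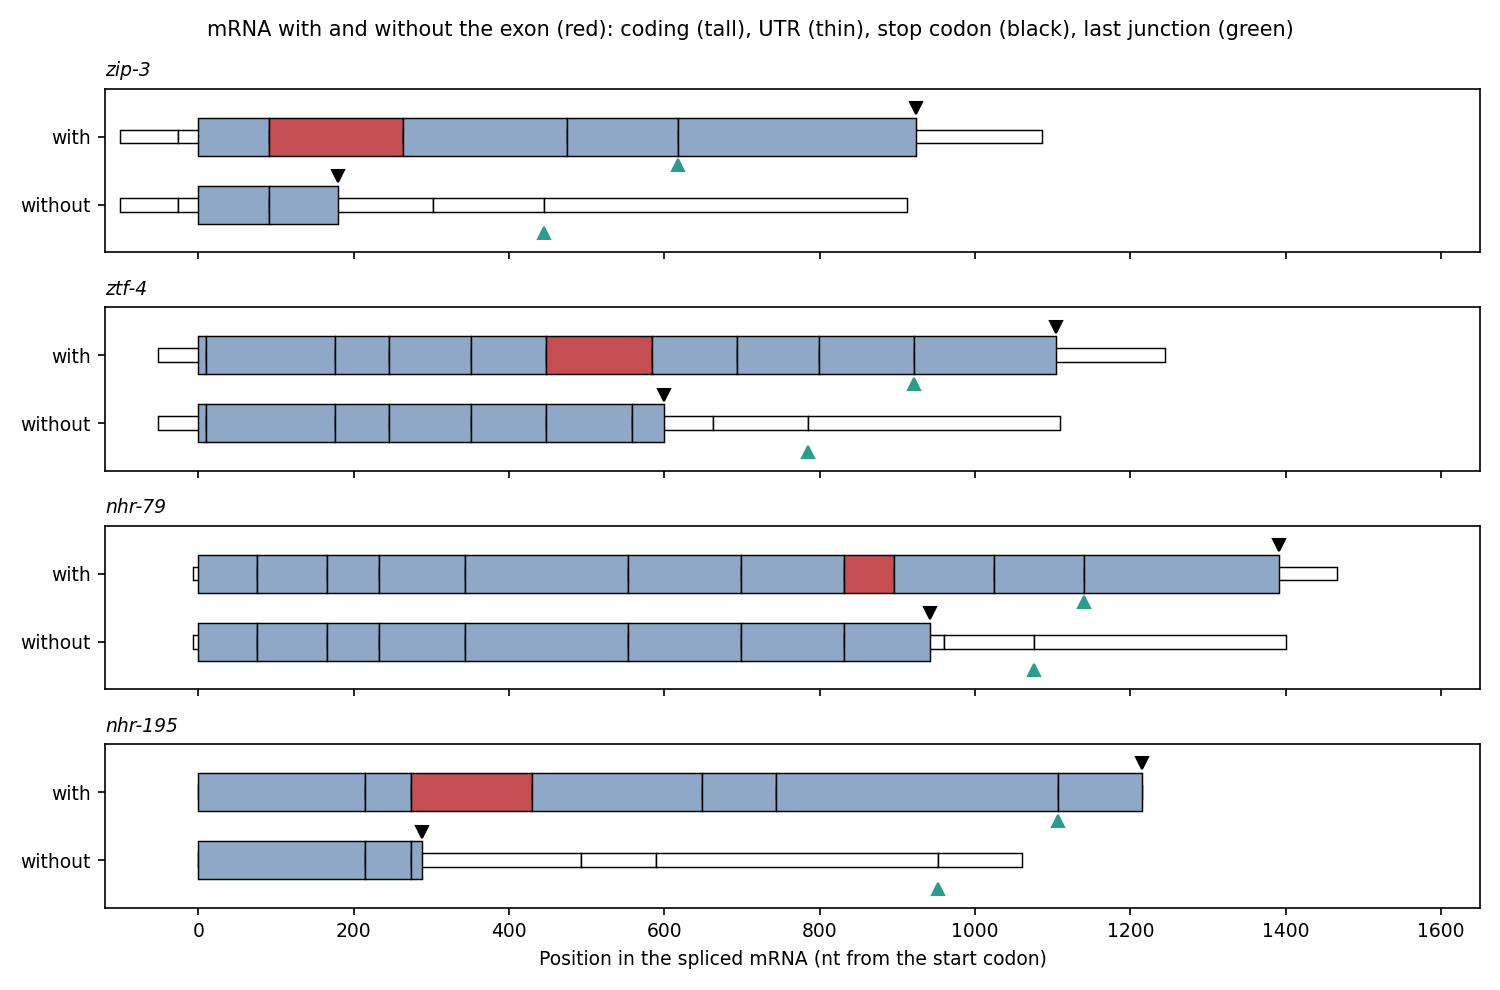
Spliced mRNAs with and without the cassette exon (red), drawn to scale in nt from the annotated start codon, with coding sequence as tall boxes, untranslated sequence as thin boxes, the stop codon as a black triangle and the last junction as a green triangle. Without the exon each stop codon moves to the left of the last junction, from 134 nt before it in *nhr-79* to 664 nt before it in *nhr-195* (isoform b frame).

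The introns that end at these exons were compared at their last bases, since the 3′ splice site of a *C. elegans* intron nearly always closes with an AG preceded by a pyrimidine. The last 20 intron bases are given with the final 3 in capitals.
zip-3 intron end: ttttgtttcaattcttgCAG
nhr-79 intron end: aacttcaaatttccttcCAG
nhr-195 intron end: gtcatacatacataattAAG
The *zip-3*, *nhr-79* and *ztf-4* introns end in CAG, as do 81.9% of 116220 annotated introns. Among the introns before the cassette exons deposited for *smg-1* the share is lower, 66%. The *nhr-195* intron ends in AAG, as do 3.51% of annotated introns and 5.61% of the introns before 785 cassette exons deposited for *smg-1*. That intron is also the shortest before any of the 4 exons, with 43 nt against 192 nt in *nhr-79*, 237 nt in *ztf-4* and 1706 nt in *zip-3*.

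Inclusion was measured as PSI, the percentage of junction reads of an exon that did not use the exon-skipping junction. Over the exons tested, junction reads per library summed to 88649 to 319156 for *smg-1* and its wild-type, and to 47438 to 160670 for *smg-2* and its wild-type. The precision of a PSI follows the reads over that exon, which ran from 101 to 782 per library for *zip-3*, from 126 to 780 for *ztf-4*, from 23 to 99 for *nhr-79* and from 5 to 270 for *nhr-195*. The genotype labels of the deposited counts and usage values conflict. Dividing counts by usage gave whole read totals in 100% of cells after swapping the genotypes of the counts, and in 25.65% (*smg-1*) and 25.01% (*smg-2*) as labelled. The usage labels were kept, because the values they call wild-type are the same for all 620 exons deposited for both mutants, and so are the counts labelled as mutant. Every direction given here rests on that choice. Both mutants were therefore set against the same 3 wild-type libraries. A call required a difference in mean PSI of over 10 points together with an adjusted p below 0.05 from limma, fitted to log2 odds of inclusion.

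In *smg-1* the exons of *zip-3*, *ztf-4* and *nhr-79* fell in PSI, and that of *nhr-195* did not pass the test. Of 782 exons tested, 51 (6.52%) were called lower in *smg-1*, and 100 (12.8%) were called in either direction. Among the 324 tested exons whose length is not a multiple of 3, 45 (13.9%) were called lower, against 3 of the 4 exons described here. These 4 were picked with earlier results of these data known, so the share says nothing about transcription factors in general.

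The *zip-3* exon was included at 98.6%, 98.4% and 98.9% in wild-type replicates 1, 2 and 3, and at 88.1%, 89.1% and 86.4% in the *smg-1* replicates. All 3 mutant libraries lay below all wild-type libraries, and neither group spread over more than a few points. Mean PSI fell from 98.6% ± 0.271 (SD, n = 3) to 87.9% ± 1.41, a difference of -10.8 points that lies close to the 10-point threshold. On the log2 odds scale, where a small minor form counts for more, the difference was -3.32 ± 0.32 (SE, limma, adjusted p = 9.67e-04).

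The *ztf-4* exon (chrI:6927996-6928131, plus strand) showed the largest difference of the 4 in points. Its PSI was 91.0%, 94.2% and 92.5% in the wild-type libraries and 71.5%, 66.8% and 71.8% in *smg-1*. All *smg-1* libraries lay well below the lowest wild-type library. Mean PSI fell from 92.6% ± 1.63 to 70.0% ± 2.83 (SD, n = 3), a log2 odds difference of -2.44 ± 0.33 (SE, limma, adjusted p = 0.00291).

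The *nhr-79* exon was included at 86.8%, 78.3% and 82.8% in wild-type and at 71.7%, 61.4% and 60.7% in *smg-1*. The groups did not overlap, but each wild-type value rests on 5 skipping reads among 23 to 38, so its counting interval is wide, from 58.1% to 90.3% in replicate 2 (Wilson, 95%, counting error only). Mean PSI fell from 82.6% ± 4.29 to 64.6% ± 6.17 (SD, n = 3), with a log2 odds difference of -1.40 ± 0.39 (SE, limma, adjusted p = 0.0487). This call lies at the edge of the threshold and was lost in 5 of 6 fits that left out 1 library, with adjusted p from 0.0693 to 0.158, and kept without wild-type replicate 2 (0.0316). It was also lost with edgeR on the reads (0.0625) and with the replicate number as a block (0.0721).

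The *nhr-195* exon was included at 61.1%, 20% and 73.3% in wild-type and at 51.9%, 38.2% and 54.0% in *smg-1*. The wild-type values rest on 18, 5 and 15 junction reads, and the interval of replicate 2 runs from 3.62% to 62.4% (Wilson, 95%). The means were 51.5% ± 27.9 for wild-type and 48.0% ± 8.57 for *smg-1* (SD, n = 3, limma, adjusted p = 0.942). The 95% interval of the difference, -38.8 to 31.8 points, is too wide to tell a change from none. It comes from limma on PSI in percent, not on log2 odds. The sign of the difference was not stable when 1 library was left out. The difference was positive without wild-type replicate 1 (1.33 points), wild-type replicate 3 (7.44 points) or *smg-1* replicate 2 (1.43 points), and it was -19.2 points without wild-type replicate 2 (adjusted p from 0.138 to 0.980 over the 6 fits).

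**Figure D2:**
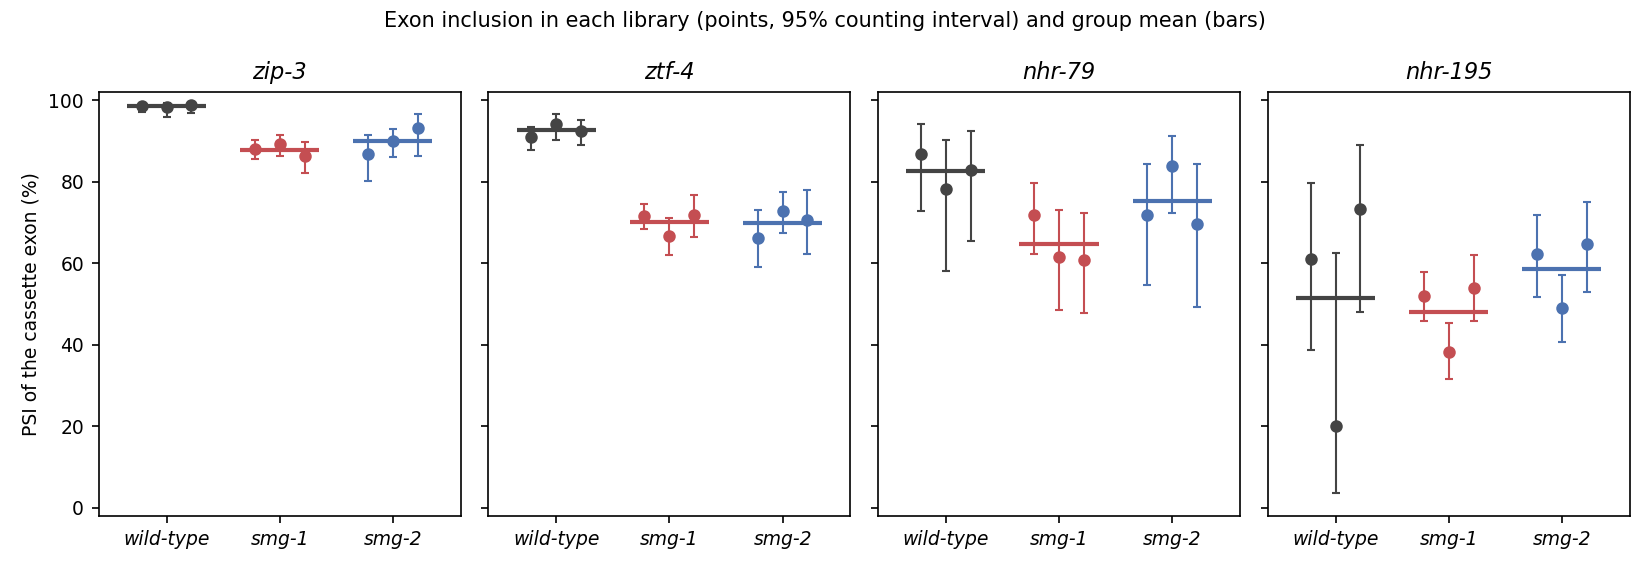
PSI of the 4 cassette exons in each of the 9 libraries (points, left to right replicates 1 to 3), with 95% Wilson intervals that cover counting error only, and group means as bars. The *ztf-4* libraries of either mutant lie between 66.3% and 72.7%, below every wild-type library, whereas the *nhr-195* wild-type libraries spread from 20% to 73.3%.

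In *smg-2* the *ztf-4* exon was the only one of the 4 that was called. Of 498 exons with values of their own in *smg-2*, 41 (8.23%) were called lower and 75 (15.1%) in either direction. Among the 173 of them whose length is not a multiple of 3, 39 (22.5%) were called lower. The *ztf-4* exon was included at 66.3%, 72.7% and 70.6% in *smg-2* replicates 1, 2 and 3, all below the wild-type libraries given above. Its mean of 69.9% ± 3.29 (SD, n = 3) differed from wild-type by -22.7 points, a log2 odds difference of -2.45 ± 0.37 (SE, limma, adjusted p = 0.00374).

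The *zip-3* exon was included at 86.8%, 90% and 93.1% in *smg-2*, again with no overlap with wild-type. The mean of 89.9% ± 3.16 (SD, n = 3) differed by -8.68 points, under the 10-point threshold, although the adjusted p of limma was 0.00293 (log2 odds difference -2.97 ± 0.42, SE). The adjusted p was 0.138 when PSI was limited to 5-95% and 0.147 when PSI was tested without the logit. The *nhr-79* exon was included at 71.9%, 83.9% and 69.6% in *smg-2*. Replicate 2 lay within the wild-type range, and the difference of -7.49 points was not significant (limma, adjusted p = 0.529). The *nhr-195* exon was included at 62.4%, 48.9% and 64.7%, a mean of 58.7% ± 8.52 against 51.5% in wild-type (limma, adjusted p = 0.802). That difference of 7.18 points turned to -8.56 points without wild-type replicate 2.

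**Figure D3:**
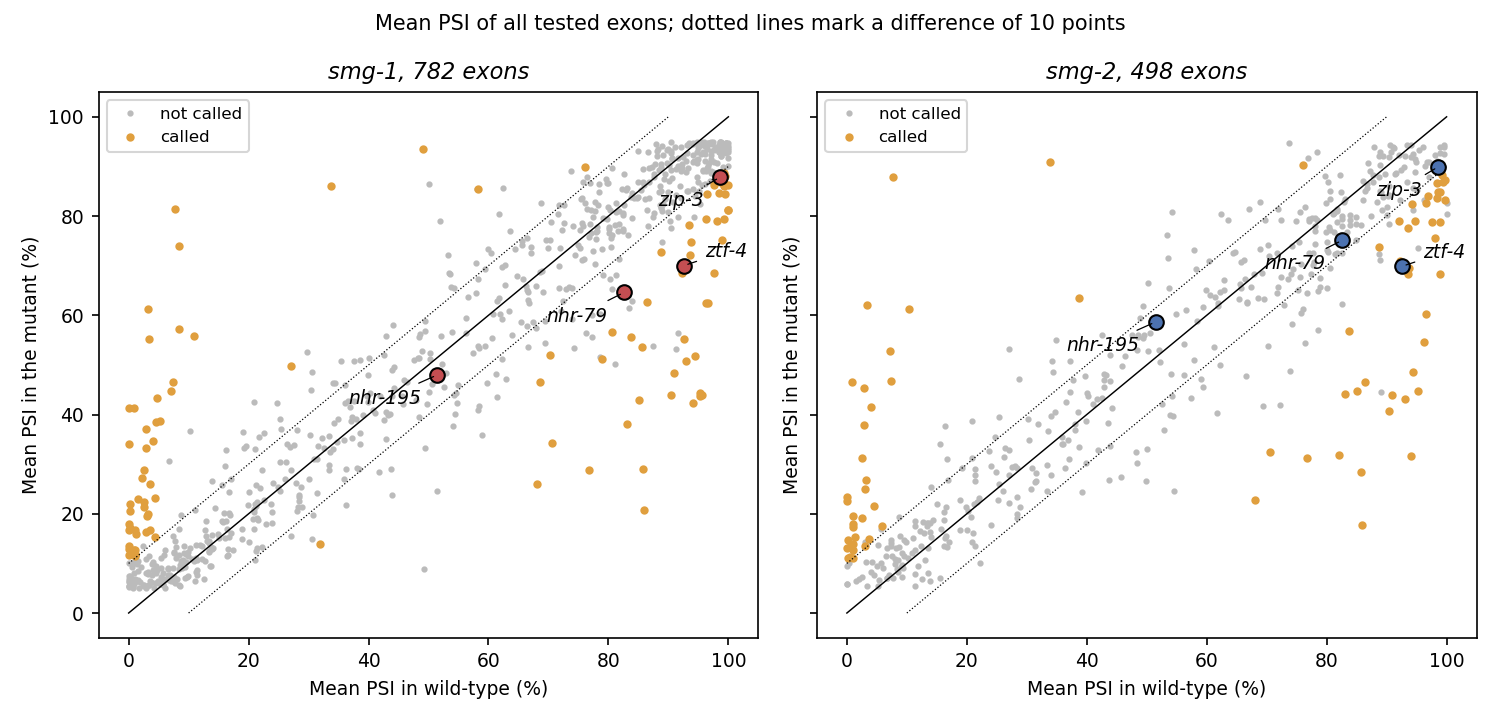
Mean PSI of every tested exon in wild-type (x axis, %) and in *smg-1* (left, 782 exons) or *smg-2* (right, 498 exons), with called exons in orange, the 4 described exons as large labelled points, and dotted lines at 10 points of difference. In *smg-1*, *zip-3*, *ztf-4* and *nhr-79* lie below the lower dotted line, and in *smg-2* only *ztf-4* does.

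A call in *smg-1* that is absent in *smg-2* is no difference between the mutants, so the mutants were compared directly. None of 498 exons was called between *smg-2* and *smg-1* (0% of those tested, limma), with 42 at an unadjusted p under 0.05, while edgeR on the reads called 3 of 482. For *ztf-4* the mutants differed by -0.140 points, with a 95% interval from -7.76 to 7.48 points. For *zip-3* PSI was 2.08 points higher in *smg-2*, with an interval from -5.02 to 9.18 points. For *nhr-79* it was 10.5 points higher, with an interval from -1.49 to 22.5 points, and for *nhr-195* 10.7 points higher, with an interval from -3.38 to 24.7 points. The lowest adjusted p of the 4 was 0.617 (limma). These intervals come from limma on PSI in percent, not on log2 odds, and take no account of the replicate number. Same-numbered *smg-2* and *smg-1* libraries deviated together weakly, so the differences were also taken within pairs, an analysis added after the values had been seen. The labels state no such pairing, and wild-type and *smg-2* libraries correlated as much in replicates 2 and 3. For *nhr-195* the *smg-2* library exceeded its *smg-1* partner by 10.5, 10.75 and 10.75 points, and the paired 95% interval, 3.04 to 18.3 points, lay above 0. Over all exons this difference did not pass the test (limma with the replicate block, percent scale, adjusted p = 0.388). For *nhr-79* the pairs differed by 0.16, 22.5 and 8.86 points, also all towards *smg-2*, with a paired interval from -2.70 to 23.7 points. The *zip-3* and *ztf-4* pairs differed in sign, with paired intervals from -6.52 to 10.7 points and from -9.51 to 9.23 points. These data do not show that the mutants act alike on the nuclear receptor exons.

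PSI is a ratio and does not say which form changed, so the reads over each kind of junction were compared as well, each relative to the summed junction reads of the tested cassette exons in that library, not to all its reads. This comparison was added after the values had been seen. In RNA from whole animals, fewer cells that express a gene and less of its RNA per cell cannot be told apart. Reads are given per 100000 of these junction reads after TMM scaling, and the test was edgeR's quasi-likelihood test with Benjamini-Hochberg adjustment over skipping and including junctions together. In *smg-1*, skipping reads were called higher for 64 of 648 exons (9.88%) and including reads for 60 of 632 exons (9.49%). In *smg-2* the counts were 44 of 442 (9.95%) and 33 of 443 (7.45%).

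For *zip-3*, raw skipping reads numbered 8, 4 and 3 in wild-type, 93, 60 and 43 in *smg-1* and 18, 29 and 7 in *smg-2*. Scaled, skipping reads rose from 3.67 ± 1.63 (SD, n = 3) to 29.2 ± 0.409 in *smg-1*, a log2 difference of 3.05 ± 0.37 (SE, edgeR, adjusted p = 9.91e-04). The *smg-1* libraries all lay at 28.8 to 29.6 and did not overlap with wild-type. In *smg-2* the skipping reads rose by 2.35 ± 0.50 on the log2 scale (SE, edgeR, adjusted p = 0.0122), a call lost when *smg-2* replicate 2 (0.0655) or either of wild-type replicates 1 (0.0643) and 3 (0.0635) was left out. Including reads were 254 ± 68.9 in wild-type and 213 ± 26.5 in *smg-1*, a log2 difference of -0.25 ± 0.26 that was not significant (adjusted p = 0.648). In *smg-2* their log2 difference was -0.64 ± 0.31 (adjusted p = 0.361).

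For *ztf-4*, raw skipping reads numbered 34, 12 and 22 in wild-type, 222, 137 and 83 in *smg-1* and 58, 84 and 37 in *smg-2*. Scaled, they rose 4.15-fold in *smg-1* (log2 difference 2.05 ± 0.25, SE, edgeR, adjusted p = 0.00104) and 4.12-fold in *smg-2* (2.04 ± 0.30, adjusted p = 0.00129). Including reads had log2 differences of -0.40 ± 0.26 in *smg-1* and -0.42 ± 0.30 in *smg-2*, neither of which passed the test (adjusted p = 0.437 and 0.542). The form that gained reads was the skipped form, which carries the early stop codon.

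For *nhr-79*, raw skipping reads numbered 5, 5 and 5 in wild-type, 28, 22 and 22 in *smg-1* and 9, 9 and 7 in *smg-2*. Scaled, wild-type libraries held 4.07 ± 2.17 and *smg-1* libraries 11.4 ± 3.09 (SD, n = 3), a log2 difference of 1.62 ± 0.46 that missed the threshold (SE, edgeR, adjusted p = 0.0586). With scaling by total junction reads the same difference passed it (adjusted p = 0.0422). In *smg-2* the log2 difference in skipping reads was 1.32 ± 0.57 (adjusted p = 0.277), further from the threshold. Including reads of *nhr-79* had a log2 difference of 0.22 ± 0.30 in *smg-1* (adjusted p = 0.741) and 0.71 ± 0.36 in *smg-2* (adjusted p = 0.374).

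For *nhr-195*, both kinds of junction passed the test in either mutant. Raw skipping reads numbered 7, 4 and 4 in wild-type, 130, 115 and 64 in *smg-1* and 32, 71 and 24 in *smg-2*. Raw including reads numbered 11, 1 and 11 in wild-type, 140, 71 and 75 in *smg-1* and 53, 68 and 44 in *smg-2*. Every mutant library exceeded every wild-type library in both kinds of read. In *smg-1* skipping reads rose 13.1-fold (log2 difference 3.71 ± 0.35, SE, edgeR, adjusted p = 4.2e-04) and including reads 8.40-fold (3.07 ± 0.42, adjusted p = 0.00199). In *smg-2* they rose 12.1-fold for both (3.60 ± 0.43, adjusted p = 5.47e-04, and 3.60 ± 0.47, adjusted p = 6.93e-04). Both kinds of junction were called higher for 12 of 609 exons (1.97%) in *smg-1* and for 6 of 428 (1.4%) in *smg-2*, *nhr-195* among them each time. Between the mutants, where 4 of 957 junctions (0.418%) were called, neither kind of junction passed the test for any of the 4 exons (edgeR, lowest adjusted p = 0.447).

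**Figure D4:**
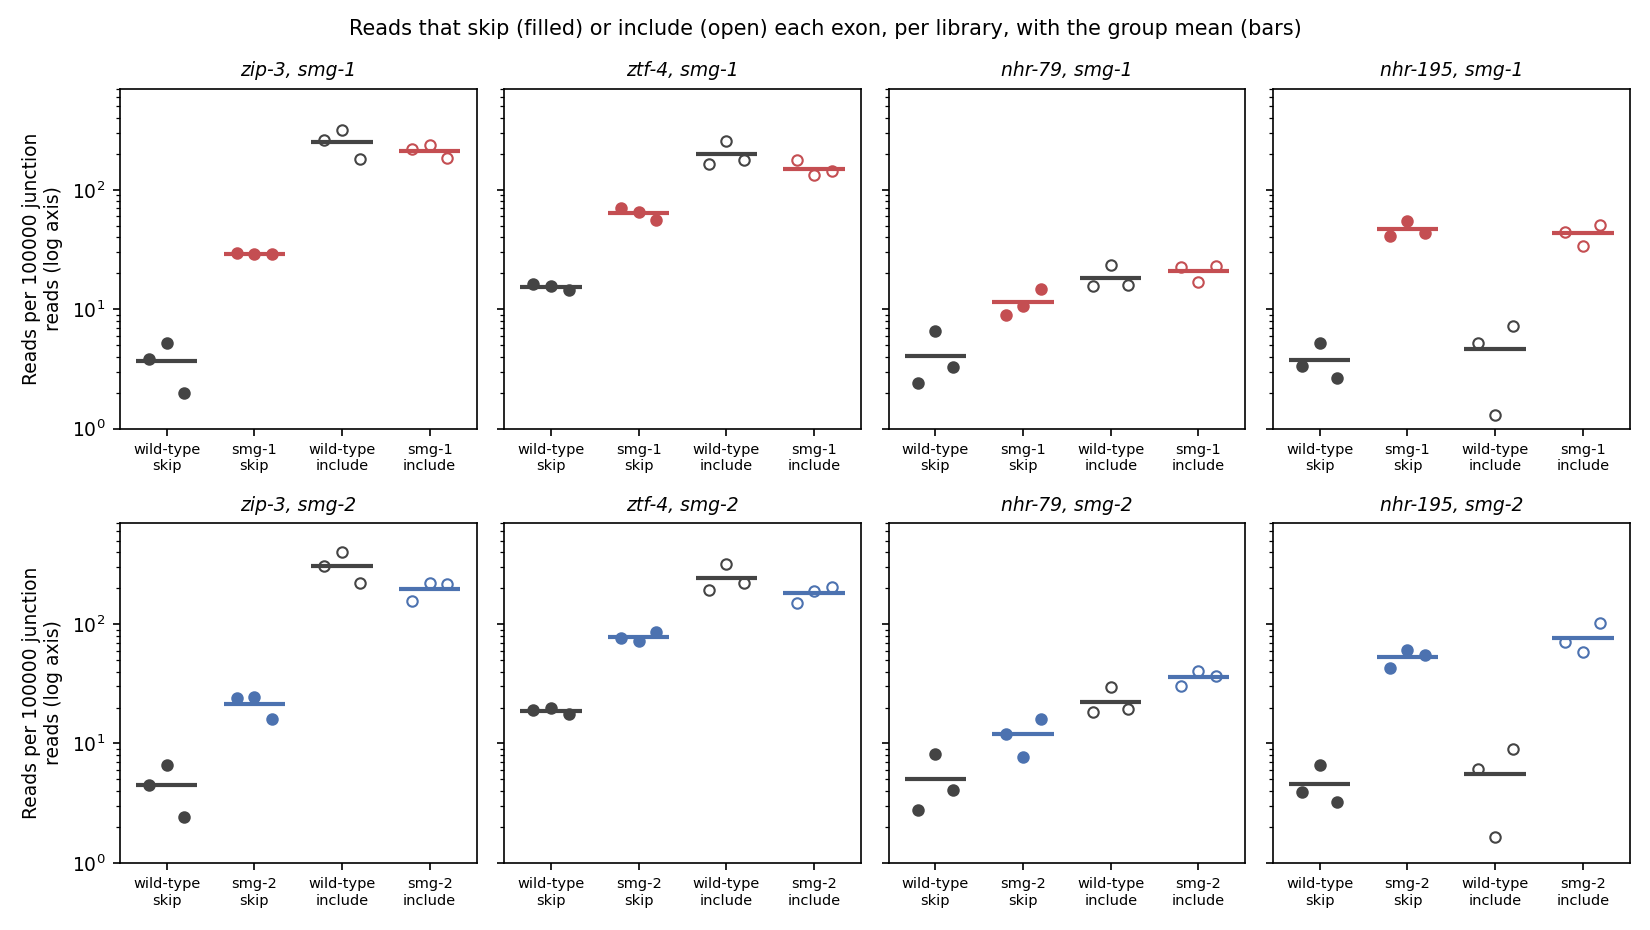
Reads that skip (filled) or include (open) each exon in each library, per 100000 junction reads after TMM scaling (log axis), with group means as bars, for *smg-1* (upper row) and *smg-2* (lower row). For *zip-3* and *ztf-4* the filled points rise while the open points of mutant and wild-type overlap, and for *nhr-195* both kinds rise, skipping reads from 3.73 to 46.6 and including reads from 4.60 to 43.1 in *smg-1*.

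The annotation of *nhr-195* gives a feature of the untranslated region. In the 6 transcripts of isoform a the 5′ UTR is 379 to 622 nt long and holds 9 to 12 ATG triplets upstream of the annotated start. Read from the first of them, the frame ends after 42 to 95 residues in 5 of the 6 transcripts, between 664 nt and 902 nt before the last junction, and in the sixth it is the full frame of 404 residues. Whether these frames are translated was not tested.

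Transcription factor genes as a group were taken from a list of gene names and name prefixes. The list matched 27 tested exons in *smg-1*, the 4 above included, of which 2 were called higher and 3 lower, against 49 higher and 51 lower among all 782 exons. Its median difference was -3.49 points, against -0.417 points over all exons, and -1.75 points without the 4 genes described, which were picked with earlier results known. In *smg-2* it matched 19 tested exons, with 1 called higher, 1 called lower and a median of -0.417 points, against -0.130 points over all 498 exons. Without the 4 genes the median of the other 15 exons had the opposite sign, 1.44 points. Apart from the 4 genes described, 2 of 23 exons were called in *smg-1*, and both rose.

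These 2 were exons that wild-type animals nearly always skip. The 113-nt exon of *vab-23* (chrII:11900952-11901064, minus strand), a zinc finger gene, was included at 0%, 0% and 0.870% in wild-type and at 25%, 12.2% and 28.6% in *smg-1* (limma, adjusted p = 9.67e-04). Its direction was thus opposite to that of *zip-3*, *ztf-4* and *nhr-79*. The 129-nt exon of *sma-2* (chrIII:8754856-8754984, plus strand), which encodes a SMAD protein of the TGF-β pathway, was at 0% in all 3 wild-type libraries, at 10.95%, 15.3% and 12.7% in *smg-1* and at 19.7%, 19.4% and 30.8% in *smg-2* (limma, adjusted p = 5.86e-04 and 5.45e-04). Its length is a multiple of 3, unlike that of the other called exons of the list. The wild-type values rest on 10 to 137 reads for *sma-2* and on 17 to 120 for *vab-23*. The largest difference of the list, -35.3 points in *nhr-68*, was not called (limma, adjusted p = 0.0835).

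Exons with a like pattern were sought among 721 exons by the root mean square difference of PSI over the 6 wild-type and *smg-1* libraries. The exons nearest to *zip-3* were those of *alh-10* (109 nt, 0.773 points), *agt-1* (56 nt, 1.10 points) and *let-502* (161 nt, 1.49 points), which went from 98.4-99.3% in wild-type to 86.6-89.6% in *smg-1*. Nearest to *ztf-4* were exons of Y67D2.4 (172 nt, 3.92 points), C06B8.2 (101 nt, 4.00 points) and C29F7.1 (133 nt, 4.13 points). Nearest to *nhr-79* were exons of F58F12.2 (28 nt, 4.43 points), C07B5.4 (121 nt, 4.79 points) and a 33-nt exon with no gene name in the deposited data (6.09 points). Nearest to *nhr-195* were exons of *denn-4* (39 nt, 6.92 points), *mpz-1* (57 nt, 7.53 points) and *rgr-1* (18 nt, 9.41 points), which is no close match. The likeness is one of PSI alone and was measured on the libraries already described.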

How the data were processed

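Usage values were deposited by the authors as the fraction of an event's junction reads that use the skipping junction, from reads aligned with STAR (version 2.5.3a) and measured with JUM (version 2.0.2, at least 5 junction reads per event). Read counts of the skipping junction were deposited by the authors without normalization. The submitters' processing notes also name bedtools. The authors' own test columns (p-values, q-values and PSI changes) were not used.

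PSI was 100 × (1 - usage). Total reads were the count, with genotype labels exchanged, divided by usage, and including reads were the total minus skipping reads. The *zip-3* totals in wild-type are uncertain by up to 0.403%. From the *smg-1* data 4 exons were left out (inverted coordinates in 1, under 2 values per group in 3), and from the *smg-2* data 122 exons whose values repeat those of *smg-1*. All 4 exons described were tested in each. PSI was limited to 1-99% and its log2 odds tested with limma 3.58.1 (lmFit, eBayes, R 4.3.3), with Benjamini-Hochberg adjustment over all tested exons. The added test of reads used edgeR 4.0.16 (TMM, filterByExpr with a minimum count of 5), with DESeq2 1.42.0 as an alternative. It covered exons with all totals known, which requires a skipping read in every library compared. The tests were first tried on simulated data.

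Forms with and without the exon were built from the WBcel235 annotation and genome with Python 3.11.15 and biopython 1.88. The exons, lists and tests were chosen with earlier results of these data known. Named were the 4 genes, exons of the transcription factor list called in either mutant (up to 10), and the 3 exons nearest to each in PSI with a median of 20 or more junction reads. *nhr-68* was named after its value was seen. Same-numbered *smg-2* and *smg-1* libraries deviated together (r = 0.131, 0.11 and 0.101 over 497 exons), so their numbers were treated as pairing them, and the fits with the pairing, on log2 odds or on percent, called 0 exons as well. The sample labels state no pairing, and these correlations are weak. Same-numbered wild-type and *smg-2* libraries correlated as much in replicates 2 and 3 (r = 0.116 and 0.16), but not in replicate 1 (0.00801). Alternatives changed the limits of PSI, scale, variance model, weights, test, minimum reads, thresholds, pairing and libraries.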

Additional observations from a re-analysis of the deposited data

How the results depend on the processing

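The 3 wild-type libraries of *nhr-195* hold 5 to 18 junction reads and those of *nhr-79* 23 to 38, which limits both PSI comparisons.

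With a threshold of 20 points, 56 exons were called in *smg-1* and 41 in *smg-2*, *zip-3* (-10.8 points) and *nhr-79* (-18.01 points) were no longer called in *smg-1*, and 1 of the 4 exons and 2 of the list passed. With 5 points, 158 exons were called in *smg-1* and 88 in *smg-2*. In *smg-2* *zip-3* (-8.68 points) then passed, which made 2 of the 4. With an adjusted p under 0.01, 64 exons were called in *smg-1* and *nhr-79* (-18.01 points) was not. *nhr-79* was also lost with PSI limited to within 0.5% of either end (adjusted p = 0.0577), edgeR (0.0625) and the replicate block (0.0721). edgeR called 3 exons between the mutants. Scaled by total junction reads, *nhr-79* skipping reads passed in *smg-1* (log2 difference 1.67) and *ztf-4* including reads between the mutants turned to -0.0172.

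The replicate block left 80 exons called in *smg-1* (100 without it) and 63 in *smg-2* (75 without it), and changed no other call of the 4 exons. On the percent scale, an alternative chosen after seeing the data, the block left 62 exons called for *smg-1* and 37 for *smg-2*. The *zip-3* difference in *smg-1* (-10.8 points) then missed the threshold (adjusted p = 0.0837). Same-numbered libraries of wild-type and *smg-1* correlated at -0.0296 to 0.0908, and those of wild-type and *smg-2* at 0.00801 to 0.16.

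Leaving out 1 library at a time gave these ranges. The *nhr-195* PSI difference ran from -19.2 to 7.44 points in *smg-1* and from -8.56 to 18.1 points in *smg-2*. The *nhr-79* difference in *smg-1* ran from -21.6 to -15.9 points, and its skipping reads from 1.28 to 1.99 (log2). The *zip-3* difference in *smg-2* ran from -10.2 to -7.09 points, and its skipping reads from 2.04 to 2.57. In these *smg-2* fits 1 or 2 of the 4 exons were called, against 54 to 72 among all exons tested. Between the mutants the *ztf-4* PSI difference ran from -1.78 to 1.66 points, its skipping reads from -0.0842 to 0.0682 and its including reads from -0.0664 to 0.14. There *nhr-195* skipping reads ran from -0.23 to 0.0798 and *nhr-79* skipping reads from -0.48 to 0.0273. The causes were not tested. Of 472 recomputed differences of the 4 exons (PSI or reads), 434 kept direction and call. This count includes differences that were not called to begin with and stayed uncalled, so it does not measure how firm the calls are. The *nhr-79* call in *smg-1* was lost in 10 of 19 alternatives.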
